A study of Arabidopsis thaliana with 6 samples.

Results

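Pollen tubes of the Arabidopsis thaliana agp6 agp11 double null mutant and of wild type were compared here for the transcripts of 9 genes annotated with an F-box: AT1G65760, AT2G27520, AT5G38390, AT5G27750, AT1G06630, AT1G23780, AT5G43190, AT1G12490 and AT1G55000. They belong to a group of 30 F-box genes that the study selected because the lower confidence bound of their fold change between the genotypes passed a limit on these same arrays. The genotype difference of these 9 genes is therefore a description and not a test. Each gene had a single named probe set among the 22746 in the table, so all 9 could be read.

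The agp6 agp11 plants carry Ds transposon insertions in AGP6 and AGP11, obtained by a cross of tagged lines, and both genotypes have the ecotype Nossen. Tubes grew for 8 h in darkness in a liquid medium, from the pollen of flowers that had just opened. A mesh then held back the tubes and let ungerminated grains be discarded. Each of the 3 arrays per genotype (Affymetrix ATH1) received RNA of a separate preparation pooled from many flowers. The signals are normalized intensities on a linear scale with no unit, in which the median probe set had 23.3 to 24.5 on the 6 arrays, and their number limits the precision.

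F-box proteins are the subunits of SCF ubiquitin ligases that choose the protein to be degraded. The F-box itself holds the adaptor SKP1 (ASK in Arabidopsis), which joins it to the cullin CUL1 and the RING protein RBX1, and the rest of the protein binds the substrate. Plants have very many such genes, and hormone receptors for auxin and jasmonate are among them. The substrate-binding part is a series of leucine-rich repeats (RNI-like repeats) in some, kelch repeats in others, and F-box associated domains or other modules in the remainder. In the male gametophyte the F-box protein FBL17 is required for division of the germ cell that gives the sperm. For the 9 genes described here no substrate is given in the sources used.

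The genotype was first checked on the disrupted genes. AGP6 (AT5G14380) had signals of 31.1, 29.1 and 15.1 in agp6 agp11, against 13313, 13677 and 9597 in wild type, and AGP11 (AT3G01700) had 34.7, 40.4 and 32.5 in agp6 agp11, against 10016, 9448 and 5604 in wild type. The pollen actins ACT4, ACT11 and ACT12 summed to between 5521 and 6929 in agp6 agp11 and between 4224 and 5270 in wild type, so that the labelled pollen tube was bright in these actin genes. The pollen genes VGD1, VGDH1 and RIC1, also listed, had no named probe set. ACT4 is named only by a table of the study that lists genes selected by fold change. Of 10 listed genes of photosynthetic tissue and 8 of the tapetum, only RCA (25.96 to 47.9 in agp6 agp11 and 23.4 to 39.1 in wild type) and A9 (19.4 to 23.98 in agp6 agp11 and 18.2 to 21.6 in wild type) could be named, and no marker value was 0. The 4 named of 7 listed genes of the sperm cells, which the tube carries, summed to 15687 to 21602 in agp6 agp11 and 8740 to 11448 in wild type, and 3 of the 4 are named only by a table of the study that lists genes selected by fold change. Among these 4, HAP2 passed the limma fit described below (adjusted p = 0.0135), while MGH3, DAZ1 and DAZ3 did not (0.241, 0.257 and 0.0637) and passed only in a fit with same-numbered arrays as pairs. Their mean signals were on the same side as those of the F-box genes that were higher in the mutant, and their part in those differences was not tested. In RNA of whole tubes, fewer cells of a type and less RNA per cell cannot be told apart.

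AT1G65760, whose protein carries the plant-specific domain DUF295 of unknown function, was detected on all 6 arrays and was much higher in the double mutant. AT1G65760 had signals of 936, 597 and 656 in agp6 agp11, against 43.9, 41.5 and 45.0 in wild type. The lowest mutant array was 13.3 times the highest wild type array, and the mean signals were 729.5 ± 181 in agp6 agp11 and 43.5 ± 1.75 in wild type (SD, n = 3 arrays each). The fold change, taken from the means of log2 signals here and below, was 16.5. The wild type arrays lay just above 40, the signal taken here as the minimum for detection. Whether this fold is given as a value or as a lower limit depends on that minimum. Among all probe sets AT1G65760 stood on average at percentile 96.4 in agp6 agp11 and at percentile 73.5 in wild type. The study also scored this gene as higher in the mutant by semi-quantitative RT-PCR, on the RNA preparations of the arrays.

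AT2G27520, a gene with F-box associated interaction domains, was detected only in the mutant and varied widely between arrays. It had signals of 202, 92.5 and 263 in agp6 agp11, against 16.1, 8.12 and 17.45 in wild type. Where a genotype was not detected, its arrays at or below 40 were set to 40 and the fold is a lower limit, here at least 4.25-fold higher in the mutant. Replicate 2 was the lowest array in both genotypes, and the coefficient of variation was 46.5% in agp6 agp11 and 36.3% in wild type.

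The 3 genes with leucine-rich or FBD-like domains were all higher in agp6 agp11. AT5G38390, with RNI-like repeats, had 119, 159 and 112 in agp6 agp11, against 14.0, 14.9 and 13.5 in wild type, at least 3.21-fold higher. It was at background on every wild type array and well above it on every mutant array. AT5G27750, with an F-box and an FBD-like domain, had 272, 147.5 and 161 in agp6 agp11, against 48.2, 27.2 and 38.1 in wild type. Only 1 wild type array exceeded 40, and the difference was at least 4.38-fold. AT1G06630, also RNI-like, had 159.8, 97.0 and 111 in agp6 agp11, against 50.8, 48.25 and 57.4 in wild type. This gene was detected on all 6 arrays with mean signals of 123 ± 33.0 in agp6 agp11 and 52.2 ± 4.73 in wild type (SD, n = 3 each) and a 2.30-fold difference of the log2 means. Its percentile among all probe sets was 86.5 in agp6 agp11 against 77.2 in wild type.

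AT1G23780, for which only the F-box is annotated, lay near or below the detection minimum. It had 32.1, 41.1 and 29.55 in agp6 agp11, against 20.0, 18.0 and 21.5 in wild type. A single array exceeded 40, so neither genotype counts as detected and no fold is given. On the log2 scale the difference was 0.78 (standard error 0.18), and the lowest mutant array was 1.38 times the highest wild type array.

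The 3 remaining genes were lower in the double mutant. AT5G43190, with kelch repeats, which fold into a propeller that binds other proteins, had 15.8, 16.2 and 12.9 in agp6 agp11, against 177, 172 and 184 in wild type. This was at least a 4.44-fold lower level, and the lowest wild type array was 10.6 times the highest mutant array. The wild type arrays had a coefficient of variation of 3.22%. AT1G12490, annotated as an F-box associated ubiquitination effector, had 8.29, 14.6 and 6.82 in agp6 agp11, against 64.3, 83.7 and 42.8 in wild type, at least 1.53-fold lower. All its mutant signals were at background. AT1G55000, whose protein pairs an F-box with a LysM domain, a module known from proteins that bind peptidoglycan and chitin, had 14.6, 21.2 and 12.7 in agp6 agp11, against 46.15, 58.3 and 37.1 in wild type. It was at least 1.16-fold lower, and 1 wild type array was below 40.

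**Figure D1:**
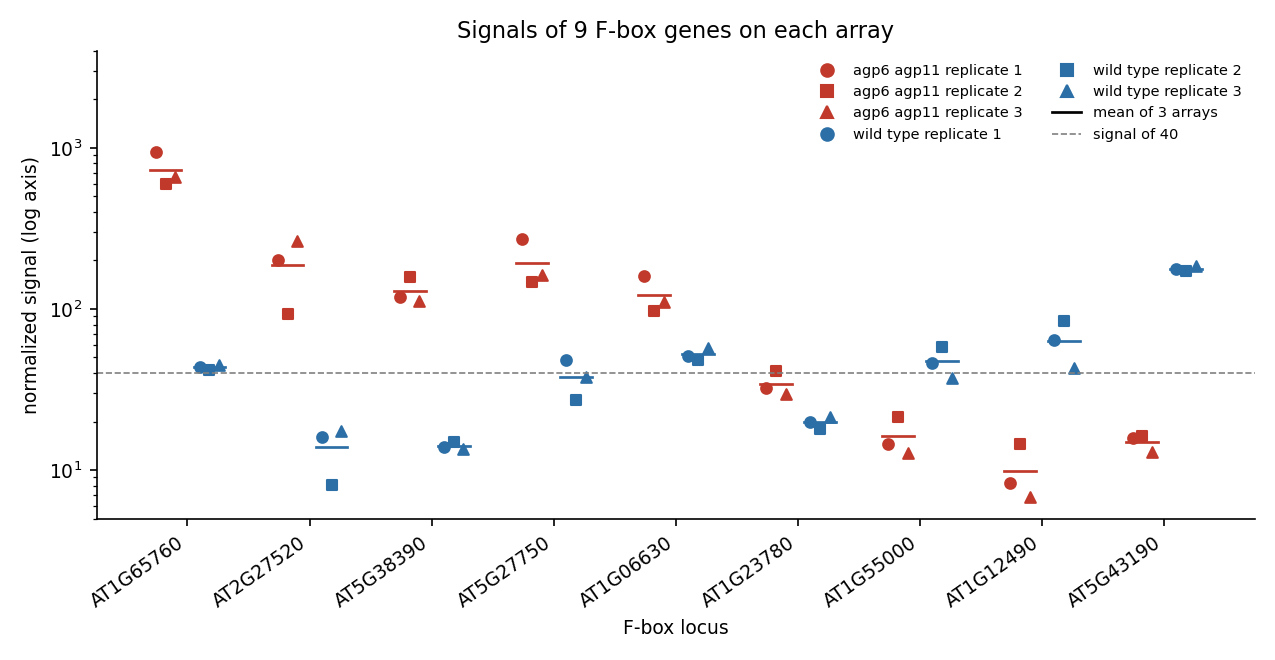
Normalized signal (log axis) of the 9 F-box genes on each of the 3 agp6 agp11 arrays (red) and 3 wild type arrays (blue); short lines are means and the dashed line is a signal of 40. The arrays of the genotypes do not overlap for any gene: 6 genes are higher in agp6 agp11 and 3 are lower.

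By detection, 3 genes (AT2G27520, AT5G38390 and AT5G27750) were detected in agp6 agp11 and not in wild type, 3 (AT5G43190, AT1G12490 and AT1G55000) in wild type and not in agp6 agp11, 2 (AT1G65760 and AT1G06630) in both, and AT1G23780 in neither. Detection requires that 2 or more of 3 arrays exceed 40, which 28.7% of all probe sets reached in agp6 agp11 and 28.2% in wild type. Thus 5 of the 9 genes were detected in each genotype, and they were not the same 5. With a minimum of 60 the count in wild type was 2, AT5G43190 and AT1G12490, and in agp6 agp11 it was still 5.

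**Figure D2:**
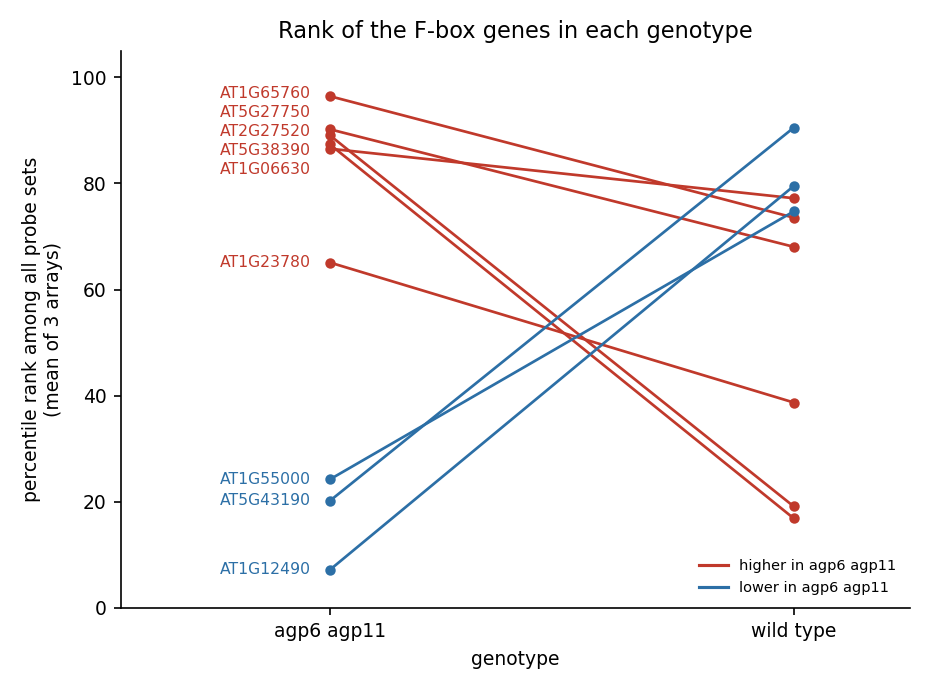
Percentile rank of each gene among 22746 probe sets, as the mean of 3 arrays, in agp6 agp11 (left) and wild type (right). Lines follow a gene between genotypes, as for AT1G65760 (96.4 and 73.5) and AT5G43190 (20.2 and 90.5), and ranks of genes below detection have no meaningful order.

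Of the 9 genes, 6 were higher and 3 lower in agp6 agp11 in the limma fit (Benjamini-Hochberg adjusted p under 0.05), which calls 3.68% of all probe sets, 2.01% as higher and 1.67% as lower. For none of the 9 did mutant and wild type arrays overlap, as for 20.0% of all probe sets (11.3% higher and 8.71% lower). Nothing can be read from these shares, since the genes were chosen by this contrast. Their median log2 difference was 1.20, and that of all probe sets was 0.03. The lower confidence bound of the fold change, recomputed here from the spread between arrays, exceeds the study's limit of 1.3 for 6.46% of all probe sets. Among the 9 genes it was smallest for AT1G23780, at 1.41. Among the other F-box genes of the study it was smallest for AT1G55590, a gene with RNI-like repeats, at 1.35. The limit on the recomputed bound did not separate the study's group from other F-box genes. ZTL (AT5G57360), outside the group, was at 1.31, above the limit. KFB50 (AT3G59940), a kelch F-box gene of cytokinin and phenylpropanoid control also outside the group, was just below it, at 1.29. KFB50 had mean signals of 118 ± 37.3 in agp6 agp11 and 63.6 ± 6.40 in wild type (SD, n = 3 each; limma adjusted p = 0.143, and 0.0298 with same-numbered arrays as pairs).

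The 21 other F-box genes of the study moved in the same mixed way: 16 had higher and 5 lower signals in agp6 agp11. By the fit 13 were called as higher and 3 as lower, again in the contrast that chose them, and a fit that takes same-numbered arrays as pairs (the replicate block) called 16 and 5. That fit calls 8.34% of all probe sets, 5.03% as higher and 3.31% as lower, and among the 9 genes 6 and 3. The 4 with the largest fitted log2 differences, an order that does not hold for limits on the fold, were FKF1 (AT1G68050), a blue light receptor of flowering time that carries kelch repeats, at 13.3 ± 3.95 in agp6 agp11 and 73.0 ± 11.1 in wild type, AT2G24080, the other DUF295 gene, at 231 ± 71.8 in agp6 agp11 and 41.7 ± 12.99 in wild type, AT3G52030, with WD40 repeats, at 182 ± 25.9 in agp6 agp11 and 37.1 ± 0.646 in wild type, and AT3G49520, with F-box associated domains, at 52.9 ± 14.2 in agp6 agp11 and 12.1 ± 1.63 in wild type (SD, n = 3 each). Each was undetected in 1 genotype, and the differences were at least 1.81-fold lower for FKF1 and at least 4.96-fold, 4.51-fold and 1.29-fold higher for AT2G24080, AT3G52030 and AT3G49520. The probe set of FKF1, named by the study's table alone, is of a type that can match several genes. AT1G70590, detected on all arrays, had 645 ± 137 in agp6 agp11 and 1128 ± 59.6 in wild type (SD, n = 3 each) and was called as lower only with the block.

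By domain type, the calls of the 30 genes were split as follows, with fitted log2 differences that have no order where a genotype was not detected. Both DUF295 genes were called as higher in agp6 agp11 (4.04 and 2.46). Of 10 genes with leucine-rich repeats or an FBD-like domain 6 were called as higher and 1 as lower, and 3 were not called. These 3 were called only with the replicate block, AT3G59000 and AT1G55590 as higher and EBF1 as lower (limma adjusted p with the block = 0.0127, 0.0212 and 0.00708). VFB2 and EBF1 were placed in this type, and ETP1 among the genes with F-box associated domains, from background knowledge. Of 8 genes with F-box associated domains 6 were called as higher and 2 as lower, among them AT2G27520 at 3.69 and AT1G12490 at -2.71. Of 3 kelch genes, AT5G43190 and FKF1 were lower (-3.58 and -2.48) and AT5G03000 was higher (1.32). AT1G55000 was the only LysM gene, called as lower (-1.55), and AT3G52030 the only WD40 gene, called as higher (2.28). Of 5 genes for which only the F-box is annotated 3 were called as higher and 0 as lower. AT5G49610 and AT1G70590, the others of this type, were called only with the block, as higher and as lower (limma adjusted p with the block = 0.00625 and 0.0174). No type was tested against another, since all were chosen by the same contrast.

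**Figure D3:**
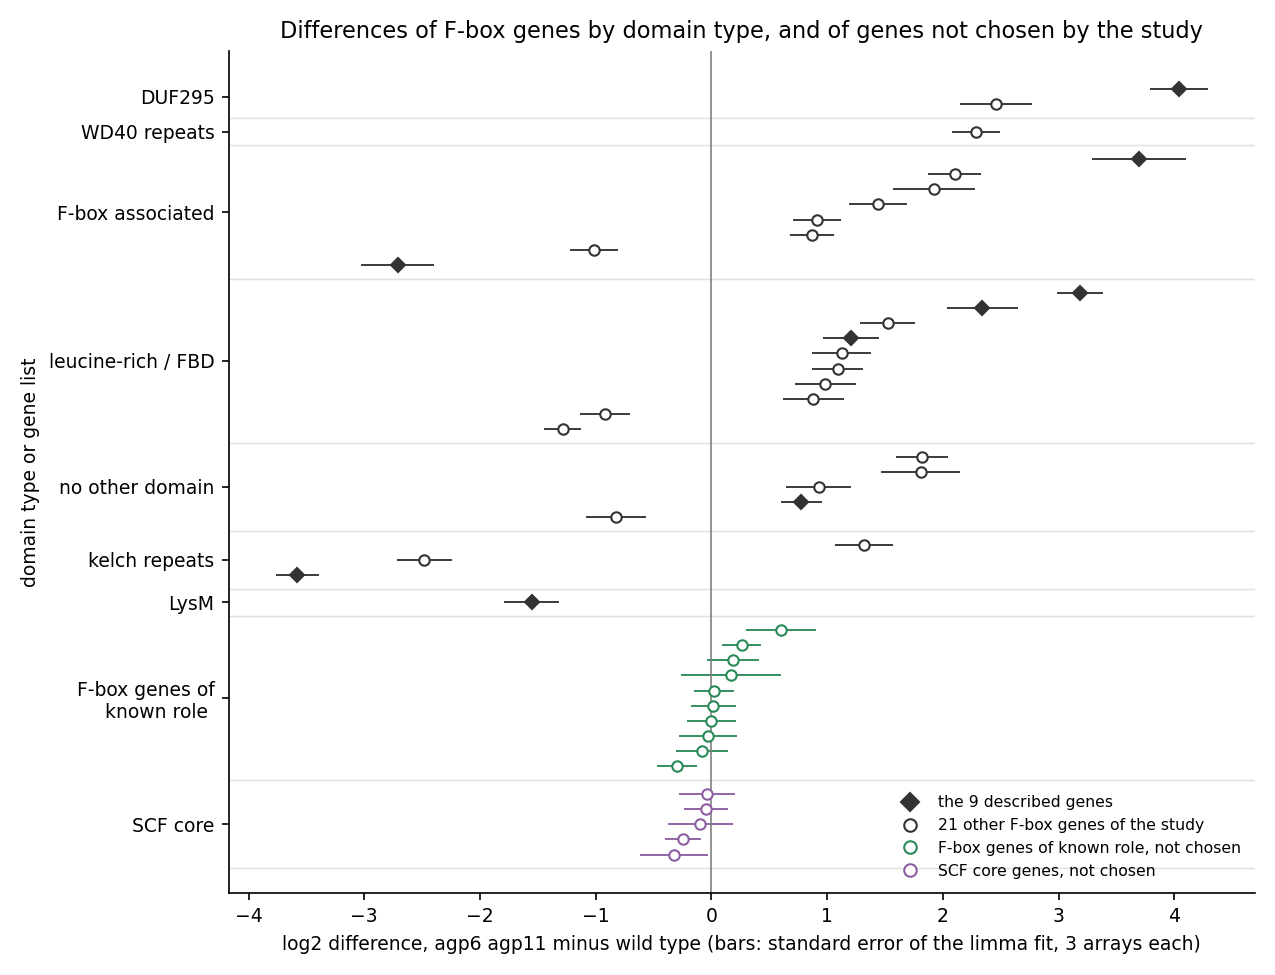
Log2 difference (agp6 agp11 minus wild type, with the standard error of the limma fit) of the 9 F-box genes (diamonds) and the 21 other F-box genes of the study (open circles) by domain type. Below them stand 10 F-box genes of known role and 5 SCF core genes that the study had not chosen, all of which lie between -0.33 and 0.60. The genes of known role that the study chose by this contrast are drawn above, so the narrow range of the others follows in part from that choice.

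F-box genes that had not been chosen by this contrast were few. Of 40 listed F-box genes with a known role, 10 were named by the platform table and lay outside the study's group, and 4 were detected in each genotype. None passed the limma test, which 3.68% of all probe sets passed, and none had an unadjusted p under 0.05, as 13.8% of all probe sets had. With 10 genes a count of 0 is near these shares. It also follows in part from leaving out the genes that the study chose by this contrast. EBF1, ETP1, FKF1 and VFB2 are on the same list of known roles and were left out as members of the study's group. Their fitted log2 differences were -0.92, 0.87, -2.48 and 1.09. The log2 differences of the 10 genes counted ranged from -0.30 to 0.60 with a median of 0.02. HWS (AT3G61590), of organ separation, had 106, 158 and 97.6 in agp6 agp11, against 123, 134 and 106 in wild type. CEG (AT3G22650), of lateral root formation, had 91.4, 109 and 72.1 in agp6 agp11 against 92.7, 145 and 37.7 in wild type, and DOR (AT2G31470), of the drought response, had 49.8, 54.8 and 33.2 in agp6 agp11 against 35.5, 42.1 and 41.3 in wild type. The genotypes overlapped in all 3. AFR (AT2G24540), of phytochrome A signalling, had a log2 difference of 0.60, with 74.7, 90.7 and 49.55 in agp6 agp11 and 45.2, 64.2 and 33.2 in wild type (limma adjusted p = 0.433, and 0.0499 with the replicate block). FBL17 (AT3G54650), the F-box gene of pollen mitosis, had 29.6, 28.1 and 23.5 in agp6 agp11 and 24.3, 23.3 and 20.0 in wild type, below 40 on all arrays, and the gibberellin signalling gene SLY1 (AT4G24210) had 13.9, 14.0 and 11.4 in agp6 agp11 and 15.6, 18.0 and 14.7 in wild type. ZTL (AT5G57360), of the circadian clock, is named only by the study's table, and had 76.5 ± 12.5 in agp6 agp11 and 45.7 ± 9.29 in wild type (SD, n = 3 each; limma adjusted p = 0.144, and 0.0372 in the fit with pairs).

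The genes that would join these F-box proteins to a ligase were mostly not named. Of 23 listed genes for ASK, cullin and RBX subunits 5 were named by the platform table. None passed, beside 3.68% of all probe sets, and none had an unadjusted p under 0.05, beside 13.8%, so that 0 of 5 is near the background. ASK18 (AT1G10230) was the only one of the 5 detected in either genotype, with 475, 294 and 465 in agp6 agp11 and 431, 364 and 505 in wild type. RBX1B (AT3G42830), ASK15, ASK16 and ASK19 were below 40 on every array. ASK3 (AT2G25700), which the study's table names and whose probe set is of a type that can match several genes, had 252, 212 and 222 in agp6 agp11 and 152, 159 and 193 in wild type.

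Regulators of SCF ligases formed a further list. The small protein RUB is attached to CUL1 through AXR1-ECR1 and RCE1, and the COP9 signalosome (CSN) removes it. Of 19 listed genes 2 were named by the platform table, SGT1A and CSN5B, both below 40 on every array, and neither passed, beside 3.68% of all probe sets. A further 5 were named only by the study's table, which lists genes selected by fold change, so their differences were in effect chosen. CSN2 (AT2G26990) had 154, 96.2 and 126 in agp6 agp11 and 22.55, 30.2 and 21.8 in wild type. ECR1 (AT5G19180) had 136, 190.1 and 86.8 in agp6 agp11 and 26.1, 32.3 and 22.8 in wild type, and CSN8 (AT4G14110) had 561, 352 and 438 in agp6 agp11 and 178, 144 and 182 in wild type. CSN5A (AT1G22920), the subunit that cleaves RUB, was lower, with 19.0, 23.05 and 17.6 in agp6 agp11 and 47.2, 54.8 and 36.7 in wild type, and so was RCE1 (AT4G36800), with 22.5 ± 0.922 in agp6 agp11 and 53.4 ± 7.25 in wild type (SD, n = 3 each). Mutant and wild type arrays were separate for each of these 5 genes, as for 20.0% of all probe sets, and nothing is read from this count.

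The spread between arrays entered the bound that chose the genes, so their pattern over arrays is also a description. Deviations of log2 signals from the mean of the genotype were compared over the 6 arrays. AT1G12490 and AT1G55000, both lower in the mutant, deviated alike (r = 0.996), although all their mutant signals were below 40. In agp6 agp11 AT1G12490 deviated by -0.18, 0.64 and -0.46 and AT1G55000 by -0.11, 0.43 and -0.31, and in wild type by 0.07, 0.45 and -0.52 and by -0.01, 0.33 and -0.32. Both were highest in replicate 2 and lowest in replicate 3 of each genotype. AT2G27520, whose wild type signals were below 40, had the opposite pattern, lowest in replicate 2 and highest in replicate 3 of both genotypes, and its r with AT1G12490 was -0.94 and with AT1G55000 -0.97. AT1G65760 and AT1G06630 also deviated together (r = 0.98), and AT5G27750 with them (r = 0.83 and 0.79). All 3 were highest in agp6 agp11 replicate 1. The deviations of AT1G65760 were 0.39, -0.26 and -0.13 in agp6 agp11 and only 0.02, -0.06 and 0.05 in wild type. Its r therefore rests mainly on the mutant arrays. With the genotype means removed from 6 arrays, few degrees of freedom remain, and every r here is imprecise.

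Over all 36 pairs of the 9 genes the median r was 0.25, and 19 pairs were above 0. Among the 15 pairs of genes that were higher in the mutant the median r was -0.07, with a range of -0.91 to 0.98, and the 3 pairs of genes that were lower had r of 0.40, 0.41 and 0.996. Arrays with the same number share deviations over all probe sets, and these correlations hold that effect. 

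**Figure D4:**
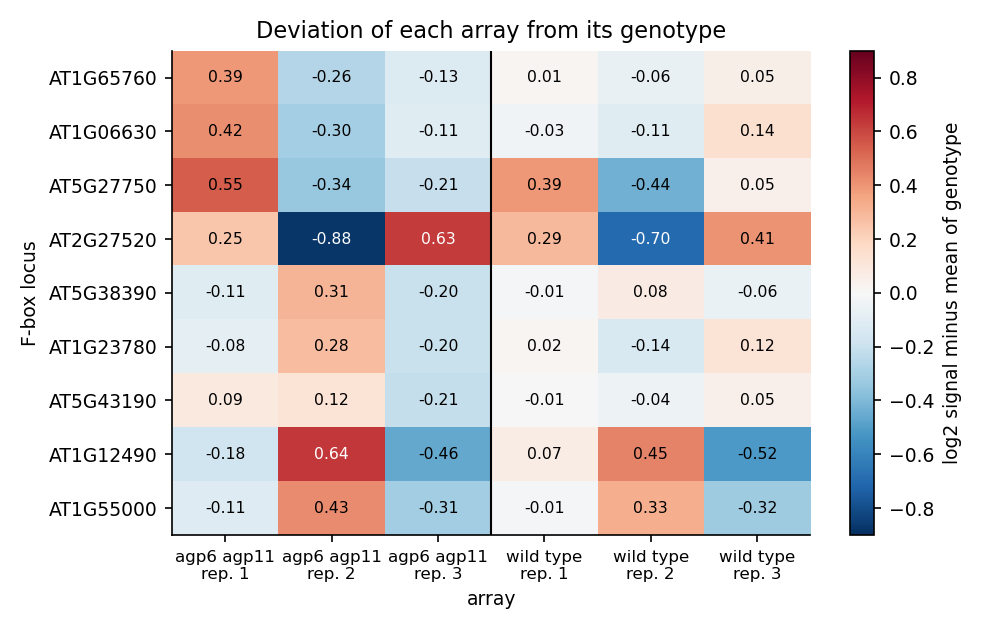
Deviation of the log2 signal on each array from the mean of its genotype, for the 9 F-box genes (rows) on the 3 agp6 agp11 and 3 wild type arrays (columns). AT1G12490 and AT1G55000 are high in replicate 2 and low in replicate 3 of both genotypes, and AT2G27520 is the reverse.

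The probe sets whose pattern over the 6 arrays was most like that of 2 of the genes, among 14285 with a named gene, were sought next. For AT1G65760 they were PYD4 (AT3G08860), UCP3 (AT1G14140) and AT1G62020, with r of log2 signals of 0.9998, 0.999 and 0.997. PYD4, an aminotransferase gene, had 375, 226 and 269 in agp6 agp11 and 17.1, 15.55 and 18.1 in wild type, so that its arrays stood in the same order as those of AT1G65760 in both genotypes. For AT5G43190 they were PUT2 (AT1G31830), a polyamine transporter gene, AT5G47550 and AGP6, with r of 0.9996, 0.9995 and 0.999. PUT2 had 38.7, 38.4 and 36.95 in agp6 agp11 and 88.4, 87.4 and 88.7 in wild type. With 3 arrays of each genotype r is set mainly by the difference between the genotypes, and 390 named probe sets reached an r above 0.95 with AT1G65760 and 249 with AT5G43190.

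On the chromosomes the 9 genes were dispersed, with 5 on chromosome 1, 1 on chromosome 2 and 3 on chromosome 5, by the RefSeq annotation of TAIR10.1. None lies within 3 protein-coding genes of another. Of the 54 positions within 3 genes on either side 18 had a gene named by the platform table. None of the 18 was called by limma, beside 3.68% of all probe sets, a count near that share, and their log2 differences ranged from -0.77 to 0.61 with a median of -0.00. The nearest named neighbour of AT1G65760 was UCL1 (AT1G65740), itself an F-box gene, which had 43.1, 47.1 and 49.8 in agp6 agp11 and 39.2, 34.5 and 37.1 in wild type (limma adjusted p = 0.448). The next gene after AT5G43190, AT5G43200, had 31.2, 20.9 and 27.3 in agp6 agp11 and 42.1, 32.8 and 43.0 in wild type (limma adjusted p = 0.226). AT5G27760, beside AT5G27750, was called as lower with the replicate block alone, with 621, 606 and 566 in agp6 agp11 and 975, 956 and 1140.5 in wild type (limma adjusted p = 0.140, and 0.0163 with the block). It thus lay on the opposite side of 0 from AT5G27750.

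**Figure D5:**
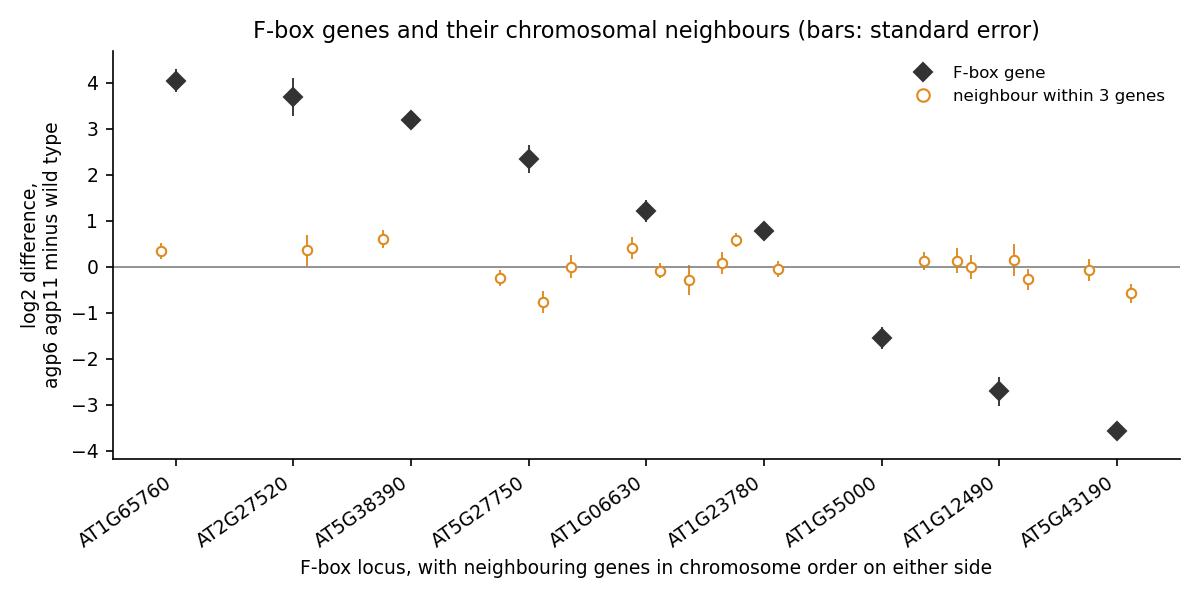
Log2 difference (agp6 agp11 minus wild type, bars are the standard error of the limma fit) of the 9 F-box genes (diamonds) and of the 19 named genes within 3 positions on either side (open circles, in chromosome order). The neighbours lie between -0.77 and 0.61, while the F-box genes reach 4.04 and -3.58.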

How the data were processed

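RNA of 3 wild type and 3 agp6 agp11 pollen tube preparations had been hybridised to ATH1 arrays. The authors scaled the arrays by the invariant set method of dChip 2010 and deposited the linear intensities that its model estimates from the perfect match probes alone. Probe-level files were not used here. Probe sets were named by a platform table (1 gene for 13513, of which 13436 matched a RefSeq locus, several for 503) or by 1999 rows of the study's own table, which lists genes selected by fold change. Its values were not used. The brightest probe set stood for each locus.

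With values under 1 set to 1, signals were converted to log2, and the genotypes were fitted with limma 3.58.1 in R 4.3.3 (eBayes with a trend), with adjustment over all 22746 probe sets. The lower bound is the 90% bound by Fieller's method. The fit was tested on simulated data. This main fit took the arrays as unpaired, and all calls, standard errors and adjusted p values are from it unless the block is named. Same-numbered arrays deviated together (r = 0.239, 0.347 and 0.379), so an alternative fit took the numbers as pairs (the replicate block). Its calls are given for the named genes whose call it changes. Labels call the arrays biological replicates. Python 3.11.15 was used otherwise.

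The 9 genes, the gene lists and the signal minimum of 40 were chosen with earlier results of these data known. The named genes are the 9, the 4 largest differences among the 21 other F-box genes of the study, the brightest and smallest-p genes of each further list, the 3 probe sets most like AT1G65760 and AT5G43190, and AGP6 and AGP11. ZTL, KFB50, EBF1, AT1G55590, AT1G70590, AT3G59000, AT5G49610, the regulators named by the study's table, ASK3 and the neighbours were named after their values were seen. No genome build is given for the files, so no coordinates are printed. Alternatives were other normalizations, an offset, a filter, eBayes without the trend, the block and the omission of each array.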

Additional observations from a re-analysis of the deposited data

How the results depend on the processing

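No log2 difference of the 9 genes changed direction under any alternative. The log2 differences with the block equal those of the main fit by construction, and median centring shifts all genes by the same amount. Of 90 recomputed values, which include these, 82 moved by less than the spread between replicates. The other 8 were all with an offset of 32, which lowers the differences of dim genes by construction: the log2 difference of AT1G65760 was then 3.31 and that of AT1G23780 0.35. The filter on low values removed AT1G12490, AT1G55000 and AT1G23780, and the 6 genes left were all called, 5 as higher and 1 as lower. The 9 calls were 8 after quantile normalization, median centring, the offset or eBayes without the trend, each time without AT1G23780, and 6 to 9 when 1 array was left out. AT1G23780 was lost in every such fit except that without agp6 agp11 replicate 3, AT1G06630 without agp6 agp11 replicate 1 or wild type replicate 1 or 2, and AT1G55000 without agp6 agp11 replicate 1. Over all probe sets 837 were called, 1897 with the replicate block, and 372 to 871 without 1 array (372 without wild type replicate 1, 403 without agp6 agp11 replicate 1, 538 without wild type replicate 2). Of the 21 other F-box genes 16 were called, and 7 to 15 without 1 array (7 without agp6 agp11 replicate 1 or wild type replicate 1, 10 without agp6 agp11 replicate 2). After quantile normalization 409 probe sets were higher and 424 lower, against 457 and 380 before. Of the 10 F-box genes of known role outside the study's group 0 were called, and 1 with the replicate block. Detection of the 9 genes in wild type was 5, and 2 with a signal minimum of 60. The median r of deviations was 0.25, and 0.14 after quantile normalization. No alternative probe set could be tried, since each locus has a single one, and neither SGT1A nor CSN5B, the SCF regulators counted, passed the filter on low values. Calls of named genes that the block changed are given in the text. Many signals lie near background, where the arrays cannot resolve a level.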
